A study of Mus musculus with 5 samples.

Results

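Described here are 10 genes of the NF-kB system in cultured mast cells: the 5 genes that encode the NF-kB subunits (Nfkb1, Nfkb2, Rela, Relb and Rel) and 5 genes for inhibitors and induced targets of the pathway (Nfkbia, Nfkbie, Nfkbiz, Tnfaip3 and Birc3). They were chosen by name from the 25549 gene models of the deposited table, and each name matched exactly 1 row. Nfkb1 entered the list as a reported target of the microRNA miR-9. RNA came from mast cells grown from the bone marrow of C57BL/6 mice over 6 to 8 weeks, with interleukin-3 at 50 ng/mL as growth factor and no treatment. The genotypes were Cpa3-Cre;miR-9∆fl/∆fl (n = 3 samples), called the miR-9 line here, and the control Cpa3-Cre (n = 2 samples). Both genotypes carry Cpa3-Cre, a Cre recombinase under the promoter of Cpa3, a mast cell carboxypeptidase. The series text states matched age and sex but not the age, and the labels leave unsaid whether recombination adds or removes miR-9 and whether samples of a genotype came from separate animals. The spread behind the p-values is therefore that of these 5 samples and may be technical.

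NF-kB is a family of transcription factors that bind DNA as pairs of Rel-domain subunits. In a resting cell, inhibitor proteins of the IkB family hold the pairs in the cytoplasm. When a receptor signals, the IkB kinase complex marks the inhibitor for destruction and the pairs enter the nucleus, where they switch on genes of inflammation together with their own inhibitors, which close the feedback loop. In mast cells the pathway is known to act downstream of the IgE receptor, the interleukin-33 receptor and Toll-like receptors, and it drives cytokine genes such as Tnf and Il6.

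Every fold change and unadjusted p-value below is from the authors' deposited table, as log2 of the miR-9 line over Cpa3-Cre, so that a negative value means lower in the miR-9 line. Values per library were not analysed here, because the library columns carry names that match no sample's labels; the level of each gene, its replicates and its depth are therefore not shown. An adjusted p is the Benjamini-Hochberg value over all 24071 rows with a p-value, and a gene is called below 0.05. The error given after ± is a standard error recovered from the authors' deposited table as if each p-value came from a two-sided Wald test with a normal reference, DESeq2's default, and 95% intervals follow from it; the authors' exact test was not given in the sources used here. Gm25641, a gene model on the minus strand opposite the Mir9-1 hairpin, which lies on the plus strand, was at 4.50 by the authors' deposited table (adjusted p = 8.74e-18); since the labels do not say which way the allele acts, this value checks no label. Across all rows with a p-value the median was -0.09, and 59.8 percent of rows were below 0.

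None of the 9 members with a p-value passed the test, and Tnfaip3 had no p-value to test. Of the 9, 7 were below 0 and 2 were above, 0 were called in either direction, and the smallest adjusted p was 0.414. The background for that count was 0.411 percent of all rows called. At an unadjusted p under 0.05 were 2 members (Birc3 and Nfkb1), both lower in the miR-9 line. Of all rows, 7.92 percent were under that level in either direction and 4.05 percent were lower. The median over the 9 members was -0.24, beside -0.09 over all rows, and their values ran between -0.71 and 0.12. The inhibitors and induced targets had a median of -0.63 over the 4 with a p-value and the subunits a median of -0.20 over 5; that difference was not tested.

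**Figure D1:**
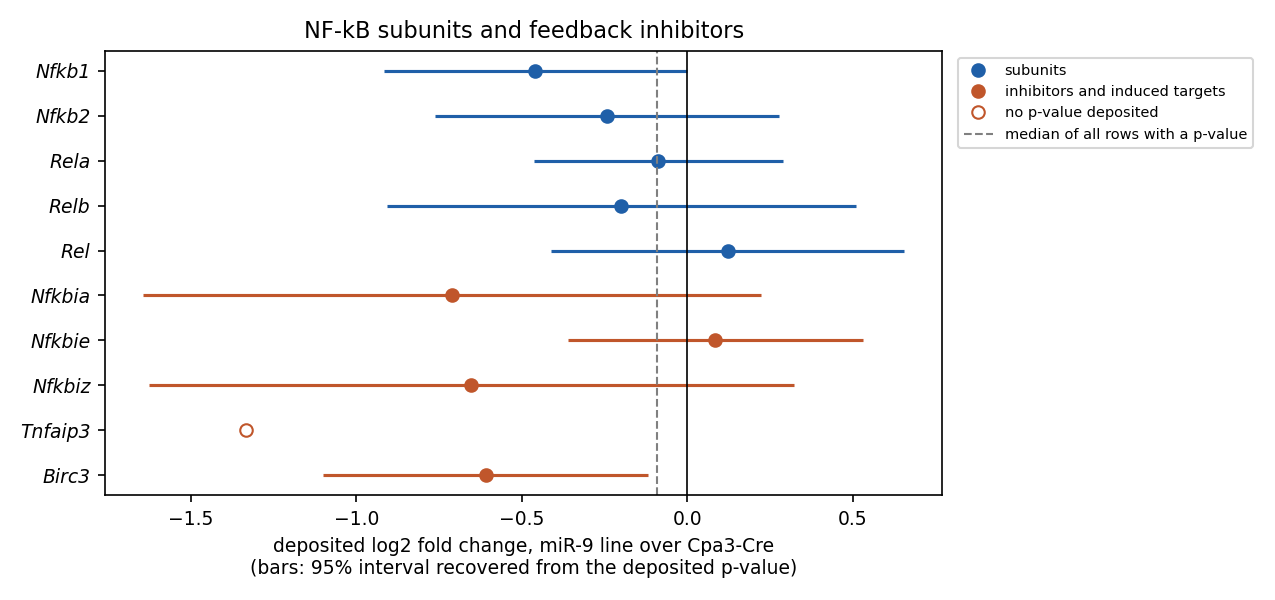
Deposited log2 fold change (miR-9 line over Cpa3-Cre) of each of the 10 genes, subunits above and inhibitors and induced targets below; bars are 95% intervals recovered from the deposited p-values, the dashed line is the median of all rows (-0.09), and the open circle has no p-value. The intervals of Nfkb1 and Birc3 end below 0, and those of the other 7 members with an interval cross it.

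Nfkb1 encodes a precursor that is processed to a DNA-binding subunit without an activation domain of its own. The gene lies on chromosome 3 from 135584655 to 135691547 on the minus strand (GRCm38, 25 exons in the deposited model, ENSMUSG00000028163.17). The authors' deposited table gave Nfkb1 a log2 fold change of -0.46 ± 0.23, or 1.38-fold lower in the miR-9 line (p = 0.0489, adjusted p = 0.625). The recovered 95% interval ran from -0.92 to just under 0, at -0.0021. By p-value Nfkb1 ranked 1881 among the 24071 rows, so 7.81 percent of all rows had a p-value as small. It had the lowest value of the 5 subunit genes.

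The sequences below show the miR-9 strands and the places in the subunit genes that match their seeds. Mature miRNAs are from RefSeq (GRCm38.p6) and are the same from Mir9-1, Mir9-2 and Mir9-3, with the seed (bases 2 to 8) in capitals. The sites are from GENCODE M21 (GRCm38) and read along the transcript, with the 7 bases that match the seed in capitals.
mmu-miR-9-5p: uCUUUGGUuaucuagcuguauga
mmu-miR-9-3p: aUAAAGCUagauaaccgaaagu
Nfkb1, miR-9-5p match: cgttcccccacactgtgtaaACCAAAGccc
Nfkb2, miR-9-5p match: ctgtacaaagggtagggcccACCAAAGaag
Rel, miR-9-3p match: caacaaattgagtttttagcAGCTTTAtaa

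The Nfkb1 match begins 83 bases after the stop codon in a 3' UTR of 751 bases, its window spanning chr3:135585316-135585345 on the minus strand. It lies in all 3 annotated coding transcripts with a complete 3' UTR and inside the last exon of the deposited gene model. The Nfkb2 match, in chr19:46312119-46312148 on the plus strand, was found in 1 of 4 such transcripts and lies outside the deposited gene model, whose last exon ends before it. The Rel match to miR-9-3p, in chr11:23737562-23737591 on the minus strand, begins 4694 bases into a 3' UTR of 5418 bases and also lies outside the deposited model. None of the other 7 members had a 7-base match to either strand. Over the 15428 genes with an annotated 3' UTR and a p-value, 13.2 percent had the miR-9-5p match ACCAAAG and 11.8 percent the miR-9-3p match AGCTTTA, so 2 and 1 of 10 members are counts to be read beside those shares. The 2 members with a miR-9-5p match stood at -0.46 (Nfkb1) and -0.24 (Nfkb2) in the authors' deposited table, and the median over the 2031 such genes was -0.11, beside -0.09 over all searched genes.

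**Figure D2:**
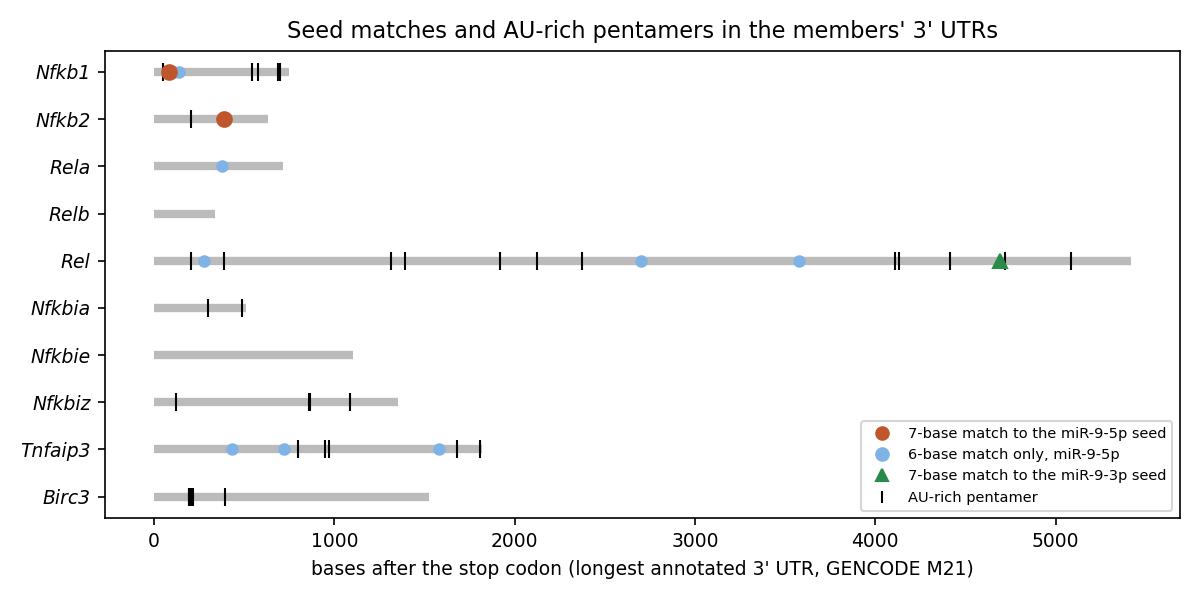
Position of seed matches and of the AU-rich pentamer along the longest annotated 3' UTR of each of the 10 genes, in bases after the stop codon; grey bars are the UTRs, red circles 7-base miR-9-5p matches, blue circles 6-base matches, green triangles 7-base miR-9-3p matches and black ticks pentamers. Red circles sit in Nfkb1 and Nfkb2 only, and Rel has the longest UTR, of 5418 bases.

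Nfkb2, whose precursor is processed in the non-canonical arm of the pathway, had a log2 fold change of -0.24 ± 0.27 by the authors' deposited table (p = 0.362, adjusted p = 0.892). Nfkb2 shares 4 exon bases with Psd on the opposite strand, at -0.68 by the authors' deposited table (p = 0.0152, adjusted p = 0.419); no source used here says if the counts were made by strand. Relb, the usual partner of the processed Nfkb2 product, was at -0.20 ± 0.36 by the authors' deposited table (p = 0.581), with a 95% interval from -0.91 to 0.51. Neither of these non-canonical subunit genes was distinguishable from 0 in the authors' deposited table.

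Rela, which encodes the main activating subunit of the canonical pathway, was at -0.09 ± 0.19 by the authors' deposited table (p = 0.648, adjusted p = 0.954). Its 95% interval, from -0.46 to 0.29, was the narrowest of the 9 members. Set against the median of all rows, Rela was at 0.0044, which turns its sign. Rel, which encodes the c-Rel subunit of lymphoid and myeloid cells, was the highest of the members at 0.12 ± 0.27 by the authors' deposited table (p = 0.654), with an interval from -0.41 to 0.66. The values of Rela and Rel were both within 1 standard error of 0, and their intervals leave room for changes of either sign.

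Among the inhibitors, Nfkbia encodes IkB alpha, the fast-acting inhibitor that NF-kB itself induces. It lies on chromosome 12 from 55489411 to 55492647 and was at -0.71 ± 0.48 by the authors' deposited table, 1.64-fold lower in the miR-9 line (p = 0.135, adjusted p = 0.769). The 95% interval ran from -1.64 to 0.22. Nfkbie, which encodes IkB epsilon, a slower inhibitor, was at 0.08 ± 0.23 by the authors' deposited table (p = 0.710, adjusted p = 0.964), with an interval from -0.36 to 0.53. The intervals of the 2 inhibitor genes overlapped, and the difference between them was not tested.

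Nfkbiz encodes a nuclear IkB protein that steers NF-kB on a subset of genes, Il6 among them. It was at -0.65 ± 0.50 by the authors' deposited table, 1.57-fold lower in the miR-9 line (p = 0.189, adjusted p = 0.813), and had the widest interval of the members, from -1.63 to 0.32. Birc3 encodes an inhibitor of apoptosis protein, a ubiquitin ligase that acts in tumour necrosis factor receptor signalling and restrains the non-canonical arm. Birc3 lies on chromosome 9 from 7848699 to 7873186 on the minus strand and had the smallest p-value of the members. The authors' deposited table put it at -0.61 ± 0.25, or 1.53-fold lower in the miR-9 line (p = 0.0148, adjusted p = 0.414), with a 95% interval from -1.10 to -0.12. It ranked 861 of 24071 rows by p-value, and 3.58 percent of rows had a p-value as small.

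Tnfaip3 encodes a ubiquitin-editing enzyme that shuts off signalling to the IkB kinases, and it had the lowest value of the 10 genes. It lies on chromosome 10 from 19000910 to 19015657 on the minus strand. The authors' deposited table put it at -1.33, or 2.52-fold lower in the miR-9 line, with no p-value. Tnfaip3 was 1 of 1478 rows whose p-value is empty, and the reason was not given in the sources used here. Among those 1478 rows, 17 had a value as low, Tnfaip3 included, and 464 lay within 0.1 of 0. Among the rows with a p-value, 152 had a value as low as that of Tnfaip3, and 36 of them were called. The value of Tnfaip3 therefore has no error here, and it entered no count of calls and no median above.

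**Figure D3:**
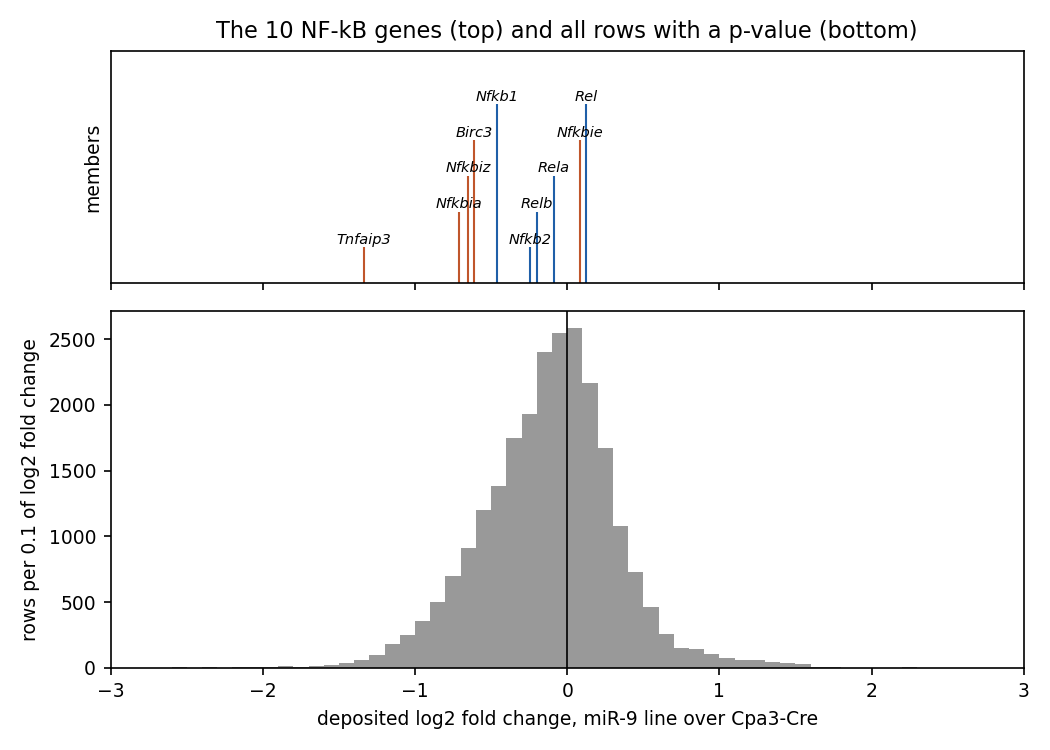
Top, deposited log2 fold change of each of the 10 genes, subunits in blue and the other 5 in red (line heights only separate the names); bottom, number of rows with a p-value per 0.1 of log2 fold change, with 1 row above the axis range counted in the last bar. All members but Tnfaip3 lie within the bulk of the rows, between -0.71 and 0.12.

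Promoters of the feedback genes are shown because induction by NF-kB at its DNA element, the kappaB site, is what closes the loop. Each is 1 RefSeq window (GRCm38.p6) of 300 bases, 250 before the start site and 50 from it on, read along the gene, with matches to the kappaB consensus on either strand in capitals.
Nfkbia, chr12:55492598-55492897, minus strand: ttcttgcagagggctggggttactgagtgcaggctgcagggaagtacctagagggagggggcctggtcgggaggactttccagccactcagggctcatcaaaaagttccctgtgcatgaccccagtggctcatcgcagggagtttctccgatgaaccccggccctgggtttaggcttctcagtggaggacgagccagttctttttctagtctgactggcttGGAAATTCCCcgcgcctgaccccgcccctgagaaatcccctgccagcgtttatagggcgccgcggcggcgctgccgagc
Nfkbie, chr17:45555450-45555749, plus strand: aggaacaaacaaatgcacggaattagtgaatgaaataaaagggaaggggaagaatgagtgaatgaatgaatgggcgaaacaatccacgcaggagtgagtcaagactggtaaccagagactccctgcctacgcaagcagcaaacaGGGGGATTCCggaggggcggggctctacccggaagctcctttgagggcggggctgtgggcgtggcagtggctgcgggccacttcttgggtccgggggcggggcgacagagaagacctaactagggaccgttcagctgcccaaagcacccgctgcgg
Tnfaip3, chr10:19015361-19015660, minus strand: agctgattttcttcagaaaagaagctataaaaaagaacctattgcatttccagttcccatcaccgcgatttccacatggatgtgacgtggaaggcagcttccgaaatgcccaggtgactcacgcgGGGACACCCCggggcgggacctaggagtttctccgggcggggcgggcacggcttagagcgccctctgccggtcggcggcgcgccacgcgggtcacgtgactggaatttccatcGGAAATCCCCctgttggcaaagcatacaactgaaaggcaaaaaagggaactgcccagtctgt
Nfkb2, chr19:46304487-46304786, plus strand: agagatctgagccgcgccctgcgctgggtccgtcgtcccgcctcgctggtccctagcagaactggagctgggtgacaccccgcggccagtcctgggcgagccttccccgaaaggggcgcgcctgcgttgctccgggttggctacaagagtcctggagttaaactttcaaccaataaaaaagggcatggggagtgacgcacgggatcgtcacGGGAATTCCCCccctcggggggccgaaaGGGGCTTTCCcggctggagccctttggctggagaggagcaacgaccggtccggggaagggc

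Promoter windows were matched for 7 of the 10 members, not for Nfkb1, Relb or Nfkbiz, and 5 of the 7 (Nfkb2, Rel, Nfkbia, Nfkbie and Tnfaip3) had a match to the kappaB consensus. The share over all genes with a window was 5.14 percent, and over single windows, of which a gene can have several, it was 4.51 percent. Nfkbia had 1 match, from -29 to -20 relative to its start site, which reads GGGAATTTCC on the opposite strand. Nfkbie had 1, from -106 to -97, which reads GGGGGATTCC. Tnfaip3 had 2 at its first start site, GGGACACCCC and, on the opposite strand near the start, GGGGATTTCC. Nfkb2 had 3 at its first start site, of which 2 overlap, and among them was the palindrome GGGAATTCCC. The Rela and Birc3 windows had none. Members with a match included the lowest value (Tnfaip3, -1.33, no p-value) and the highest (Rel, 0.12) of the list in the authors' deposited table. Birc3, which had the smallest p-value, was without one. How the matches relate to the fold changes was not tested.

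A looser pattern of GGG, any 5 bases and CC, searched on both strands and able to overlap itself and the consensus, was found in all 7 members with a window and in 53.5 percent of all genes with one. Of the 13247 genes with both a window and a p-value, 806 had a consensus match, with a median of -0.12, beside -0.10 over all 13247. The 104 genes with at least 2 consensus matches, overlapping ones included, at a start site had a median of -0.24, and 69.2 percent of them were below 0, beside 60.9 percent of all 13247. Genes with the looser pattern lay on the other side of the whole, with a median of -0.07 and 58.5 percent below 0, and those with at least 2 such matches had a median of -0.05 and 56.8 percent below 0. These values come from the authors' deposited table and carry no test.

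**Figure D4:**
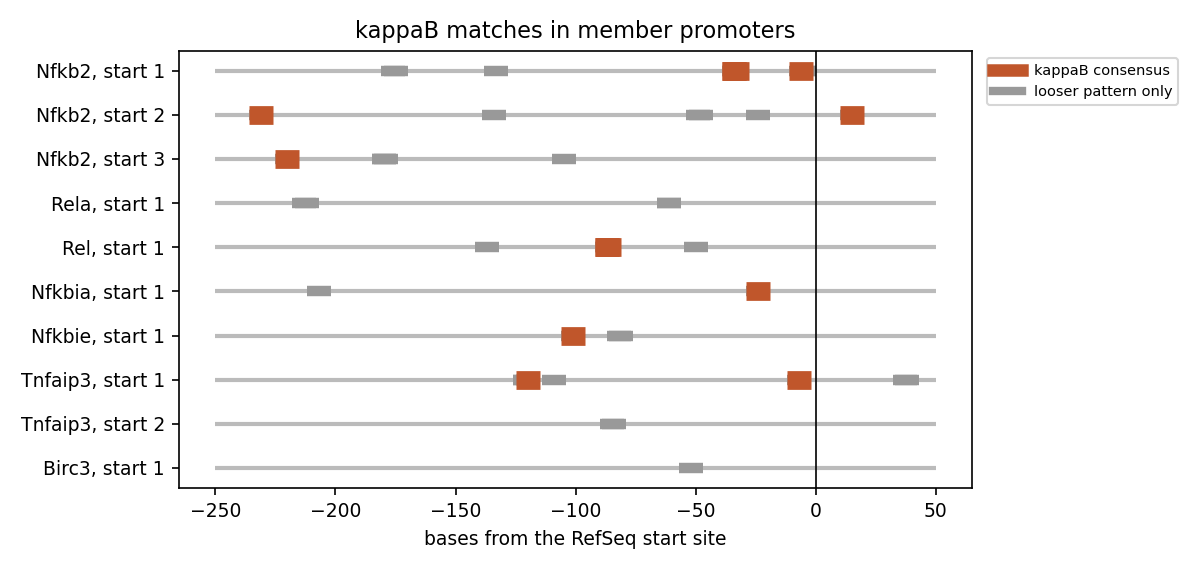
Matches to the kappaB consensus (red) and to the looser pattern alone (grey) in the RefSeq promoter windows of 7 members, in bases from the start site (vertical line); several rows for a gene are separate start sites. Red marks are present for Nfkb2, Rel, Nfkbia, Nfkbie and Tnfaip3 and not for Rela or Birc3.

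The AU-rich pentamer ATTTA, a feature of short-lived mRNAs, was counted in the longest 3' UTR of each member. Birc3 held 7, Nfkb1 and Tnfaip3 5 each, Nfkbiz 4 and Nfkbia 2, while Rel held 12 in its much longer UTR. Rela, Relb and Nfkbie held 0 and Nfkb2 held 1. Most of the pentamers of Rel lie outside the deposited gene model. Those of Birc3 lie in 1 of 2 annotated transcripts, and none of those of Nfkb1 lies in all 3. At least 1 pentamer was found in 7 of 10 members, beside 67.3 percent of searched genes, at least 2 in 6 members, beside 48.2 percent, and at least 4 in 5 members, beside 28.3 percent. The median over the 10382 genes with a pentamer was -0.09, beside -0.09 over all searched genes, in the authors' deposited table.

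No gene of the rest of the IkB family passed. Of 4 genes tested, 3 were below 0, beside 59.8 percent of all rows. Their median was -0.49, beside -0.09 over all rows. Nfkbid, for another nuclear IkB protein, stood at -0.88 ± 0.54 (p = 0.102), and Bcl3, for a nuclear IkB protein that binds the Nfkb1 and Nfkb2 products, at -0.67 ± 0.52 (p = 0.199) by the authors' deposited table. Nfkbil1 was at -0.32 ± 0.27 and Nfkbib, for IkB beta, at 0.16 ± 0.27 by the authors' deposited table. As with Nfkbia and Nfkbiz, all 4 intervals crossed 0.

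The kinases and adaptors that lead to NF-kB centred near 0. In the IkB kinase complex and its relatives 0 of 8 genes tested were called and the median was 0.0041; the kinase genes Chuk (0.26) and Ikbkb (near 0) and the regulatory subunit gene Ikbkg (-0.09) did not pass by the authors' deposited table. Map3k14, which encodes the kinase that starts processing of the Nfkb2 precursor and is degraded with the help of Birc3, was at -0.80 ± 0.34 by the authors' deposited table (p = 0.0180, adjusted p = 0.445). Among 25 upstream adaptors and kinases, 0 were called and the median was -0.01. Map3k8, whose product is held by the Nfkb1 precursor, was at -1.07 ± 0.36 by the authors' deposited table (p = 0.00316, adjusted p = 0.188). Irak2, of the Toll-like and interleukin-1 receptor pathways, was at -0.54 ± 0.19 (p = 0.00443) and Map3k7, the kinase upstream of the IkB kinases, at 0.36 ± 0.15 (p = 0.0175) by the authors' deposited table. For comparison, 7.92 percent of all rows had an unadjusted p under 0.05 in either direction, beside 1 of 8 and 3 of 25 in these lists.

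Ubiquitin ligases and deubiquitinases that tune the pathway beside Tnfaip3 and Birc3 had a median of 0.02 over 22 genes tested, with 0 called. Zc3h12a, which encodes a ribonuclease known to cleave Il6 and Nfkbiz mRNAs, stood at -0.60 ± 0.20 (p = 0.00299, adjusted p = 0.184) and was the 1 gene of that list with an unadjusted p under 0.05 in the authors' deposited table. Receptors that signal to NF-kB had a median of -0.18 over 16 tested, with 0 called, and of -0.14 over all 24 listed. At an unadjusted p under 0.05 were 3 of the 16, all lower. Of all rows, 7.92 percent were under it in either direction and 4.05 percent were lower. Of these, Tnfrsf11a, the receptor of the RANK ligand, stood at -0.86 ± 0.32 (p = 0.00814), Tlr6 at -0.57 ± 0.26 (p = 0.0277) and Tlr9 at -1.12 ± 0.54 (p = 0.0382) by the authors' deposited table. Coactivators and partners of the Rel proteins had a median of 0.09 over 14 tested, with 0 called and 0 at an unadjusted p under 0.05. Of these 14, 2 (14.3 percent) were below 0 and 12 above, beside 59.8 percent of all rows below 0. In the IkB kinase list 4 of 8 tested were below 0, and among the upstream adaptors and kinases 14 of 25. For the ubiquitin ligases and deubiquitinases it was 11 of 22, and for the receptors 11 of 16.

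Genes that NF-kB is known to induce had a median of -0.37 over 28 tested, and 20 of them (71.4 percent) were below 0 in the authors' deposited table, beside 59.8 percent of all rows. Over all 44 listed genes, with or without a p-value, the median was -0.18. None was called, and 3 of 28 had an unadjusted p under 0.05, beside 7.92 percent of all rows. Gadd45b, a stress gene that limits cell death, stood at -1.31 ± 0.51 (p = 0.0102, adjusted p = 0.347), the cytokine gene Il6 at -0.88 ± 0.38 (p = 0.0229) and the growth regulator Myc at 0.55 ± 0.22 (p = 0.0122) by the authors' deposited table. The cytokine gene Tnf was at -0.67 ± 0.54 by the authors' deposited table (p = 0.211). The other 16 listed genes had no p-value, as for Tnfaip3. Their median was -0.12, their values ran between -1.20 (Csf1) and 0.38 (Ccl4), and 7 of them lay within 0.1 of 0 in the authors' deposited table. Lists of cell type markers ran both ways. Lymphocyte markers had a median of -0.52, with 8 of 8 tested below 0, and mast cell markers a median of 0.09, with 5 of 15 below 0. Whether genes with wide errors lean lower whatever their pathway was not tested.

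**Figure D5:**
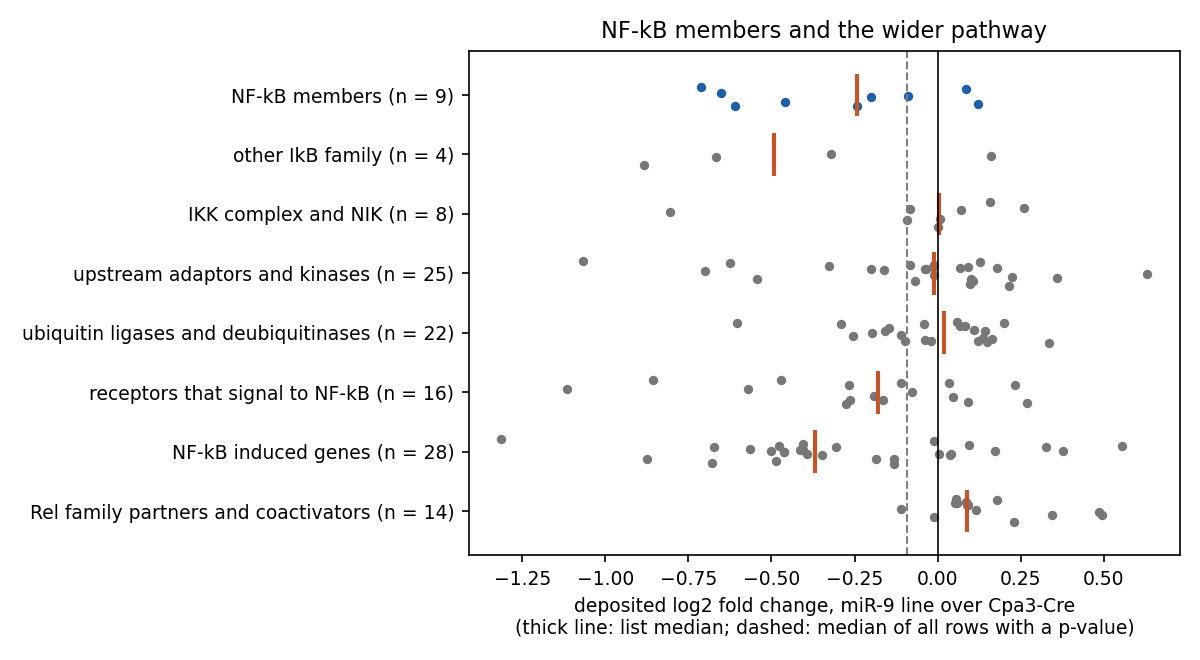
Deposited log2 fold change of each gene with a p-value in the NF-kB members (top, blue) and in 7 lists of pathway genes (grey); thick red lines are list medians and the dashed line is the median of all rows (-0.09). Medians lie at -0.24 for the members, -0.49 for the other IkB genes and -0.37 for the 28 induced genes with a p-value (-0.18 over all 44 listed), and between -0.18 and 0.09 for the other 5 lists.

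The labelled cell type could be checked only through fold changes, which give no level. All 15 mast cell marker genes had a p-value, with a median of 0.09, and 10 were above 0 and 5 below. Of them 1, the tryptase gene Tpsb2, was called (1.60 by the authors' deposited table, adjusted p = 0.0149), beside 0.411 percent of all rows. At an unadjusted p under 0.05 were 2 of the 15, both higher, beside 7.92 percent of all rows in either direction. The second was Cma1, at 0.97 ± 0.41 by the authors' deposited table (p = 0.0176, adjusted p = 0.442). Macrophages, dendritic cells and lymphocytes also express Nfkb2, Relb and Rel. Of their markers, 1 of 13 monocyte and macrophage genes, 4 of 10 dendritic cell genes and all 8 lymphocyte genes found in the table had a p-value, as had 1 of 11 neutrophil and 3 of 6 basophil genes. The medians over those genes were -0.43, -0.41, -0.52, -0.28 and -0.35 in the authors' deposited table, with 0 called in each list. Their levels per library were not analysed here, their part in the values of the NF-kB genes was not tested, and in bulk RNA fewer cells of a type and less RNA per cell cannot be told apart.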

How the data were processed

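RNA of 5 samples was sequenced, grouped by their titles, and the labels state about 70000000 paired reads of 50 bases per sample from rRNA-depleted stranded libraries. GRCm38 and mm10 are the builds, and DESeq2, DESeq, Cuffdiff, HTSeq and STAR the tools, per the submitters' processing notes, with no versions or roles. What the authors deposited is, per the file headers, the log2 fold change of each gene, that fold as a signed score and the p-value. The exon length (an other value) is also deposited. The p-value is empty in 1478 of 25549 rows. The sources used here do not give the model, filters, shrinkage or use of strand, and shrunken folds would understate changes of scarce genes. The 5 columns per library match no sample's labels and were not used, so the count or log-scale tests planned for them, and an error or depth per sample, were not made.

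P-values were adjusted by Benjamini-Hochberg over 24071 rows (statsmodels 0.14.6, Python 3.11.15); the step was tested on simulated data. Standard errors were recovered as the absolute log2 fold change divided by the normal quantile of the p-value (scipy 1.17.1). 3' UTRs were the longest complete ones of protein-coding transcripts in GENCODE M21, which shares the build. Older symbols were matched through RefSeq synonyms. The members and lists were chosen with earlier results of these data known. Named genes were all members and, per list, called genes or up to 4 with the smallest p under 0.05. Other IkB genes, Chuk, Ikbkb, Ikbkg, Tnf, Cma1, Csf1 and Ccl4 were named after their values were seen.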

Additional observations from a re-analysis of the deposited data

How the results depend on the processing

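The count of 0 members called was also 0 at the study's own unadjusted threshold of 0.0001, at an adjusted p under 0.10, when adjusted over protein-coding rows or symbols with 1 row, and by Benjamini-Yekutieli; it was 2 at an unadjusted p under 0.05. Over all rows the count of 99 called became 233 at an adjusted p under 0.10, 1906 at an unadjusted p under 0.05 and 24 by Benjamini-Yekutieli. The median of the members, -0.24, lay between -0.35 and -0.22 when 1 member was left out; it was -0.35 without Rela, without Relb, without Rel, without Nfkbie, and with Tnfaip3 included, an alternative chosen after seeing the data. Relative to the median of all rows it was -0.15, 6 members in place of 7 were below 0, and Rela turned its sign, at 0.0044. With a 6-base miR-9-5p seed match Nfkb1 had 3 matches. At least 1 such match was found in 5 of 10 members, beside 37.0 percent of searched genes. No paired analysis was possible because the library columns match no sample's labels; for the same reason no replicate was left out and other normalizations, filters and pseudocounts were not run. A p-value that misses the threshold does not show that a gene is equal in the 2 genotypes, and the recovered intervals leave room for changes of over 1 log2 unit in Nfkbia, Nfkbiz and Birc3.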

Other observations

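Slc39a8, a neighbour of Nfkb1 that encodes a zinc transporter, stood at -0.65 (p = 0.0640, adjusted p = 0.674) in the authors' deposited table. Slc39a8 lies 133731 bases from Nfkb1 on the opposite strand, and Manba, on the other side, stood at -0.13. Among the nearest genes on either side of each member, Slc39a8 did not have the smallest p-value. Aldoart2, beside Nfkbia, stood at -1.20 (p = 0.0212, adjusted p = 0.470) in the authors' deposited table. None of these neighbours was called.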
